A study of Homo sapiens with 12 samples.

Results

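The lysosome genes examined here, together with the subunits of the proton pump that acidifies this organelle, were the 143 of 16705 genes whose KEGG annotation in the expression table named the Lysosome pathway or whose symbol began with ATP6V. The pathway named 129 of them, the symbol named 22, and 14 pump genes were found by the symbol alone. Their RNA levels come from 12 sequenced libraries of liver spheroids, 3 for each combination of treatment (untreated or 1% TPN) and time (24 h or 144 h). The spheroids joined C3A, a line subcloned from HepG2 liver tumour cells that keeps many hepatocyte functions, with LX-2, an immortalized line of activated human hepatic stellate cells, in medium with fetal bovine serum. TPN, total parenteral nutrition, is the intravenous feed given to patients who cannot be fed by mouth, and the mixture used held amino acids with electrolytes, glucose, a lipid emulsion, trace elements and vitamins. Exposure began 3 days after seeding, so the untreated spheroids of 144 h were also older than those of 24 h, and each library came from many pooled spheroids of both cell lines. In such bulk RNA, fewer cells of a type and less RNA per cell cannot be told apart.

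Lysosomes are the acidic compartments in which a cell breaks down proteins, glycans, lipids and nucleic acids delivered from outside or by autophagy. Their acidity is made by the vacuolar H+-ATPase, a rotary pump whose V1 sector hydrolyses ATP in the cytosol and whose V0 sector carries protons through the membrane. Most of the soluble hydrolases are tagged in the Golgi with mannose 6-phosphate and carried onward by its receptors, and many lysosomal genes share a CACGTG-type promoter element that is bound by the MiT/TFE factors TFEB and TFE3. In liver, the lysosome also releases cholesterol and fatty acids from lipoproteins and lipid droplets.

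Levels are given as FPKM, the number of fragments scaled to transcript length and to the mapped fragments of the library, which can be set side by side between genes. Differences are log2 fold changes of FPKM + 0.1 from a limma model of all 4 groups, and a gene passed the test at a Benjamini-Hochberg adjusted p value below 0.05. A DEG also had an absolute log2 fold change above 0.58. The 11713 genes with a mean of at least 0.5 FPKM were tested, among them 128 of the 143 lysosome and pump genes. The 15 that were not tested were ATP6V0A4, ATP6V1B1, ATP6V1C2, ATP6V1FNB and ATP6V1G2 of the pump, the proteases CTSE, CTSF, CTSO, CTSW and NAPSA, and AP3B2, GALC, IDUA, PSAPL1 and HYAL4. None of the 143 was at 0 in all 12 libraries.

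The depth of the libraries was estimated from 22 short genes, in which low FPKM values stand for whole fragments, and ran from 18400000 to 19300000 fragments, so 0.5 FPKM on a transcript of 2000 bases stood for about 18.7 fragments. Libraries of the same group had Pearson correlations of 0.993 to 0.996, and no library stood apart from its group. The hepatocyte markers were abundant and summed to between 10810 and 14880 FPKM per library. Of the macrophage markers, PTPRC, MARCO, CSF1R and CLEC4F averaged at most 0.03 FPKM in every group. By contrast, CD14 and AIF1 had group means between 1.03 and 1.79 FPKM, and LYZ between 1113 and 1340 FPKM. Of 8 tested stellate cell markers, 7 were lower in untreated spheroids at 144 h than at 24 h, beside 52.4% of all genes tested. COL1A1 averaged 15.1 FPKM in untreated spheroids at 24 h and 1.92 FPKM at 144 h.

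After 24 h of exposure, 13 of the 128 genes passed the test. Expression was higher in 9, or 7.03%, where 5.04% of all genes tested were higher, and lower in 4, or 3.12%, where 5.46% of all genes were lower. No lysosome or pump gene was a DEG at this time, where DEGs made up 0.64% of all genes on the higher and 0.273% on the lower side. After 144 h, 77 of the 128 genes passed. Expression was higher in 57, or 44.5%, against a background of 24.2% of all genes tested, and lower in 20, or 15.6%, against a background of 28.3%. The median log2 fold change of the 128 genes was 0.01 at 24 h and 0.13 at 144 h, beside medians of -0.0045 and -0.02 over all genes. At 144 h, 8 genes were DEGs with higher expression (6.25%, background 5.75%) and 1 was a DEG with lower expression (0.781%, background 3.73%). The rises at 144 h were thus frequent and mostly small. Of the 77 calls, 9 were lost under some alternative, among them those of ATP6V1H, ATP6V1F, SMPD1, GM2A, GNPTAB, SUMF1, FUCA2 and SLC11A1. The 3 exposed libraries all lay above the 3 untreated libraries in 60 genes (46.9%, background 27.2%) and all below them in 20 (15.6%, background 30.2%).

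**Figure D1:**
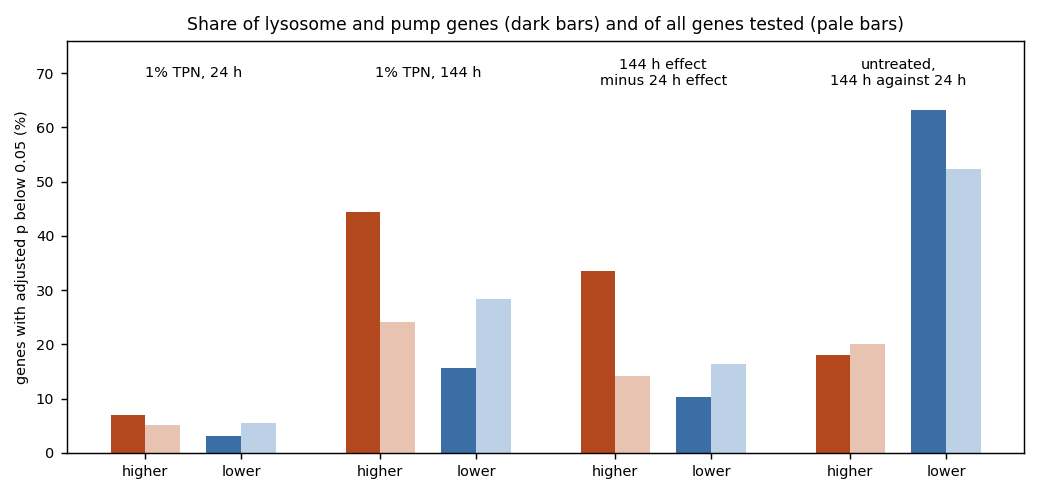
Percentage of genes with an adjusted p value below 0.05, with higher (red) or lower (blue) expression in each of the 4 comparisons. Dark bars stand for the 128 lysosome and pump genes and pale bars for all 11713 genes tested. At 144 h of exposure the dark bar for higher expression reaches 44.5% and the pale bar 24.2%.

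The FPKM of the 143 genes summed at 24 h to 5404 ± 46.1 (SD, n = 3) without and 5467 ± 25.7 with exposure, where the lowest exposed library, at 5439 FPKM, lay only just above the highest untreated one, at 5438 FPKM. At 144 h it was 4877 ± 49.9 in untreated and 5552 ± 128 in exposed spheroids, and the lowest exposed library, at 5436 FPKM, lay above the highest untreated library, at 4929 FPKM. The largest single contributor was PSAP, the precursor of the saposins that help hydrolases reach membrane lipids, at 358 FPKM in untreated spheroids of 24 h. It was followed by LAPTM4A at 299 FPKM, the tetraspanin CD63 at 242 FPKM and the cholesterol-binding protein NPC2 at 202 FPKM.

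**Figure D2:**
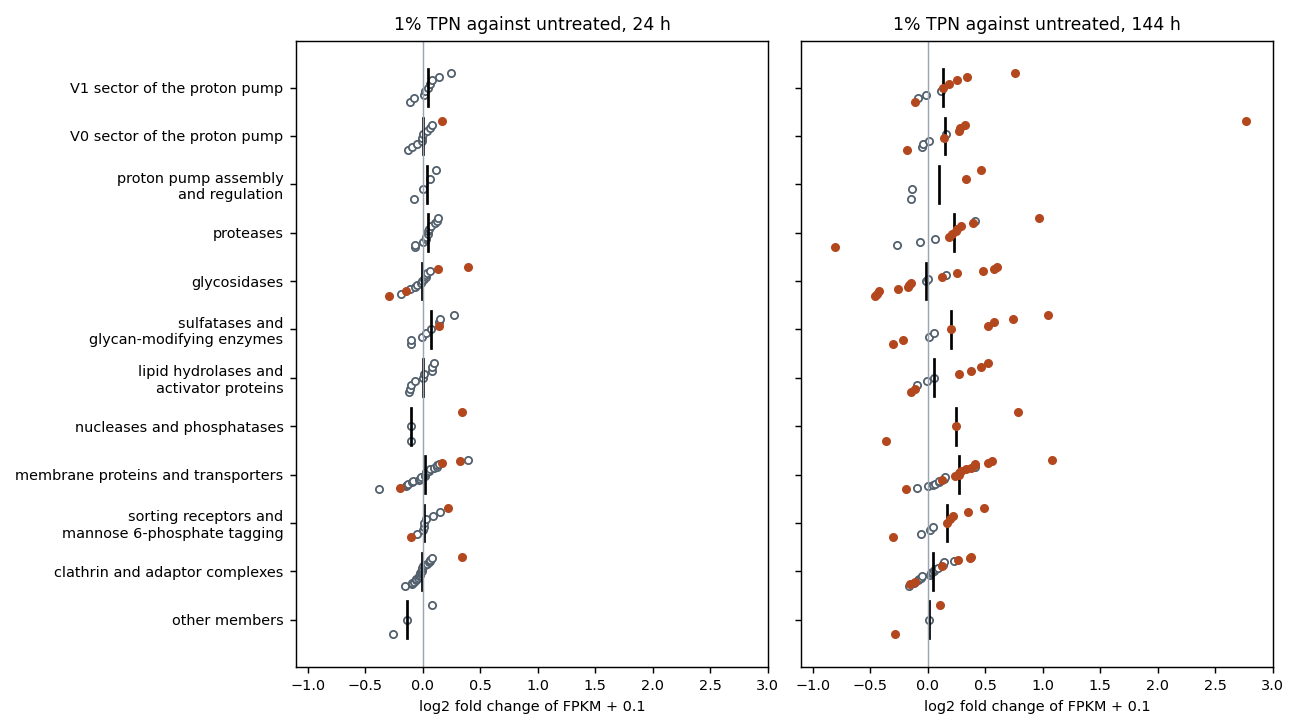
Log2 fold change of FPKM + 0.1 in exposed against untreated spheroids for the 128 genes tested, sorted by role, at 24 h (left) and 144 h (right). Filled points passed the test, open points did not, and the vertical bars mark the median of each role. At 144 h the filled points lie mostly to the right of 0 in every role except the glycosidases, of which 5 are higher and 7 lower, and the 3 genes listed as other members.

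The promoter element was looked for first, since it is the sequence feature that lysosomal genes are known to share. RefSeq promoter windows on GRCh38.p14, from 250 bases before to 50 bases after the transcription start, were at hand for 106 of the 143 genes. The motif TCACGTG, on either strand and so also as CACGTGA, was found in 23 of these 106 genes, or 21.7%. It was found in 4.49% of all 27305 genes with a promoter window and in 7.16% of the 9530 such genes that were tested here and are not lysosome or pump genes. The shorter CACGTG, which every TCACGTG contains, was present in 24.5% of the 106 genes, in 8.77% of all genes and in 12.6% of the other genes tested. A match of letters is a description and does not show that a factor binds there. The following windows of 26 bases are a selection of the sites. They belong to genes of the pump, of the lysosomal membrane, of the sorting route and of the hydrolases that are described in the next paragraphs. For genes with several sites, 1 site is shown. Capitals mark the motif, with the letter T or A that extends CACGTG, and each window is written 5′ to 3′ on the strand of its gene.
ATP6V0B, chr1:43974893-43974918, + strand: ggcgtggggTCACGTGgtaccggcgc
ATP6V0D1, chr16:67481201-67481226, - strand: cccttatggTCACGTGAggcgcttgc
ATP6V1G1, chr9:114587701-114587726, + strand: gctgtgcggTCACGTGAcaacggggg
LAMP1, chr13:113297201-113297226, + strand: cccgcgggaTCACGTGAcgcccgggc
IGF2R, chr6:159969044-159969069, + strand: gggcggctgTCACGTGAcgcggttcc
M6PR, chr12:8949475-8949500, - strand: tttcccacgaCACGTGAgtgtgaggg
GALNS, chr16:88857106-88857131, - strand: ggcaccgcgTCACGTGAcccgccgct
GAA, chr17:80101540-80101565, + strand: tcccgccggTCACGTGAcccgcctct
CTSA, chr20:45891300-45891325, + strand: cgccggagtTCACGTGActcgtacac
CTSD, chr11:1763959-1763984, - strand: cggccgcgccCACGTGAccggtccgg
ATP6V0E2, chr7:149872886-149872911, + strand: ccttctgcaTCACGTGgggactgcgc
NEU1, chr6:31862932-31862957, - strand: gctgcgtgaTCACGTGggaggagatg
The first 10 of these genes passed the test with higher expression at 144 h of exposure, and ATP6V0E2 and NEU1 passed it with lower expression. No window is shown of the 7 tested genes with the motif that did not pass at 144 h.

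In all, the 23 genes held 37 such sites, of which 34 lay before the transcription start and 23 within 100 bases before it. Most of each window, 250 bases against 50, also lies before the start. The lysosomal membrane glycoprotein gene LAMP1 had 6 sites and the mannose 6-phosphate receptor gene IGF2R had 3. Of the 21 genes with the motif that were tested, 11 were higher and 3 lower at 144 h of exposure, with a median log2 fold change of 0.14. Of the 74 tested genes whose window lacked it, 30 were higher and 11 lower, with a median of 0.11. The 33 tested genes without a window had a median of 0.22. Among lysosome and pump genes, those with and without these letters near the start therefore had similar medians in these libraries, and the difference was not tested.

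**Figure D3:**
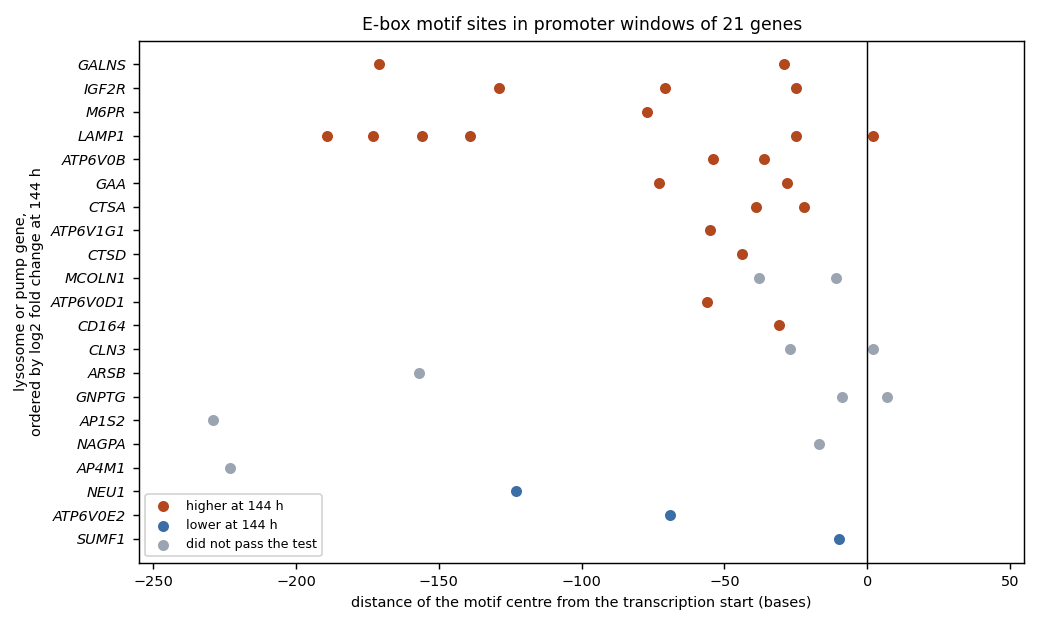
Distance in bases between the centre of each TCACGTG or CACGTGA site and the transcription start, for the 21 tested genes that hold such a site, ordered by their log2 fold change at 144 h of exposure. Red points belong to genes with higher, blue points to genes with lower expression, and grey points to genes that did not pass the test. Most sites lie to the left of the start in genes of all 3 colours, as does most of the window, with 250 bases before and 50 after the start.

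Among the proton pump subunits, 10 of the 19 tested genes were higher at 144 h of exposure, 2 were lower and 7 did not pass the test. At 24 h, only ATP6V0A2 among the 19 passed. For this and the following counts by role, 24.2% of all genes tested were higher and 28.3% lower at 144 h. The shares at 24 h were 5.04% higher and 5.46% lower. The summed level of the subunits was 690 ± 15.9 FPKM (SD, n = 3) in untreated and 755 ± 22.3 FPKM in exposed spheroids at 144 h, and 908 ± 14.6 and 924 ± 7.51 FPKM at 24 h. At 144 h the exposed libraries, at 751, 735 and 779 FPKM, all lay above the untreated libraries, at 677, 685 and 708 FPKM. Exposed spheroids of 144 h were thus still below the untreated spheroids of 24 h in this sum. With median ratio scaling the sums of these 2 groups were 799.6 and 849.9. The sectors then differed in direction, with 308.2 against 299 for V1 and 491.3 against 550.9 for V0. The V0 subunit ATP6V0E2 weighed heavily in these sums, at 65.2 against 150 FPKM as deposited.

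In the V1 sector, 5 of 9 tested genes were higher and 1 was lower at 144 h. ATP6V1E1, the widely expressed form of the peripheral stalk subunit E, stood at 48.4, 48.3 and 50.1 FPKM in untreated and at 61.7, 61.5 and 62.7 FPKM in exposed spheroids, without overlap. Its log2 fold change was 0.34 (SE 0.03, adjusted p = 8e-07) at 144 h and 0.07 at 24 h, and the difference between the times passed the test (adjusted p = 0.000426). Its paralog ATP6V1E2, known mainly from testis, had much lower levels of 0.86, 0.78 and 1.03 FPKM in untreated and 1.71, 1.38 and 1.61 FPKM in exposed spheroids. All exposed libraries lay above the untreated ones, and the log2 fold change of 0.75 (adjusted p = 0.000597) made it a DEG, although with a pseudocount of 1 it was 0.44. Smaller rises passed for the stalk subunits ATP6V1C1 at 0.26 and ATP6V1G1 at 0.18 and for ATP6V1F, part of the rotor, at 0.13. The regulatory subunit ATP6V1H, which couples V1 to V0, fell by 0.11 on the log2 scale (adjusted p = 0.0466), and this call was lost without any of 5 of the 6 libraries of 144 h, with adjusted p values from 0.0828 to 0.143. The catalytic subunits did not pass the test. ATP6V1A, which hydrolyses ATP, had a log2 fold change of -0.09, and its partner ATP6V1B2 one of -0.01.

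In the V0 sector, 5 of 10 tested genes were higher and 1 was lower at 144 h. The largest change of any lysosome or pump gene was that of ATP6V0D2, an alternative form of the stalk subunit d that is known from osteoclasts, macrophages and kidney. It was at 0, 0.03 and 0.03 FPKM in untreated and at 0, 0 and 0.03 FPKM in exposed spheroids at 24 h. At 144 h it stood at 0.39, 0.38 and 0.33 FPKM in untreated and at 3.36, 3.19 and 2.72 FPKM in exposed spheroids. The libraries were thus near 0 at 24 h, low in untreated spheroids of 144 h and highest in exposed spheroids of 144 h, with no overlap between the groups of 144 h. The log2 fold change at 144 h was 2.77 (SE 0.22, adjusted p = 1.84e-07), and the gene passed the filter on low values only through the exposed group of 144 h, so that a gene which passed in this way had to differ. The usual form of this subunit, ATP6V0D1, was far more abundant, at 37.8 ± 0.86 FPKM in untreated and 41.7 ± 2.05 FPKM in exposed spheroids of 144 h, with a log2 fold change of 0.14.

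The remaining V0 subunits split by isoform. The small membrane subunit ATP6V0E1 rose at 144 h from 56.5, 60.8 and 58.7 FPKM to 72.2, 71.4 and 76.7 FPKM, a log2 fold change of 0.32 (adjusted p = 1.01e-05). Its paralog ATP6V0E2 fell from 73.8, 72.8 and 74.0 FPKM to 64.0, 61.6 and 69.9 FPKM, a log2 fold change of -0.18 (adjusted p = 0.00441). In both paralogs the exposed and untreated libraries did not overlap. Of the large subunit a, which forms the proton channels of V0, ATP6V0A1 rose by 0.27 at 144 h, whereas ATP6V0A2 rose by 0.17 at 24 h and had a log2 fold change of -0.05 at 144 h. For ATP6V0A2 the difference between the times passed the test (adjusted p = 0.0256), but its call at 24 h was lost without any of the 6 libraries of that time, with adjusted p values of 0.0625 to 0.123, and the difference without any of 5 libraries, with values up to 0.0598. TCIRG1, the a3 form, had a log2 fold change of -0.04 at 144 h and did not pass. Of the proteolipid ring, ATP6V0B rose by 0.28, and ATP6V0C, the most abundant subunit in untreated spheroids of 144 h at 97.4 ± 10.5 FPKM, had a value of 0.16 that did not pass (adjusted p = 0.0846). The accessory subunit ATP6AP1 stood at 63.8 FPKM in untreated and 64.1 FPKM in exposed spheroids.

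**Figure D4:**
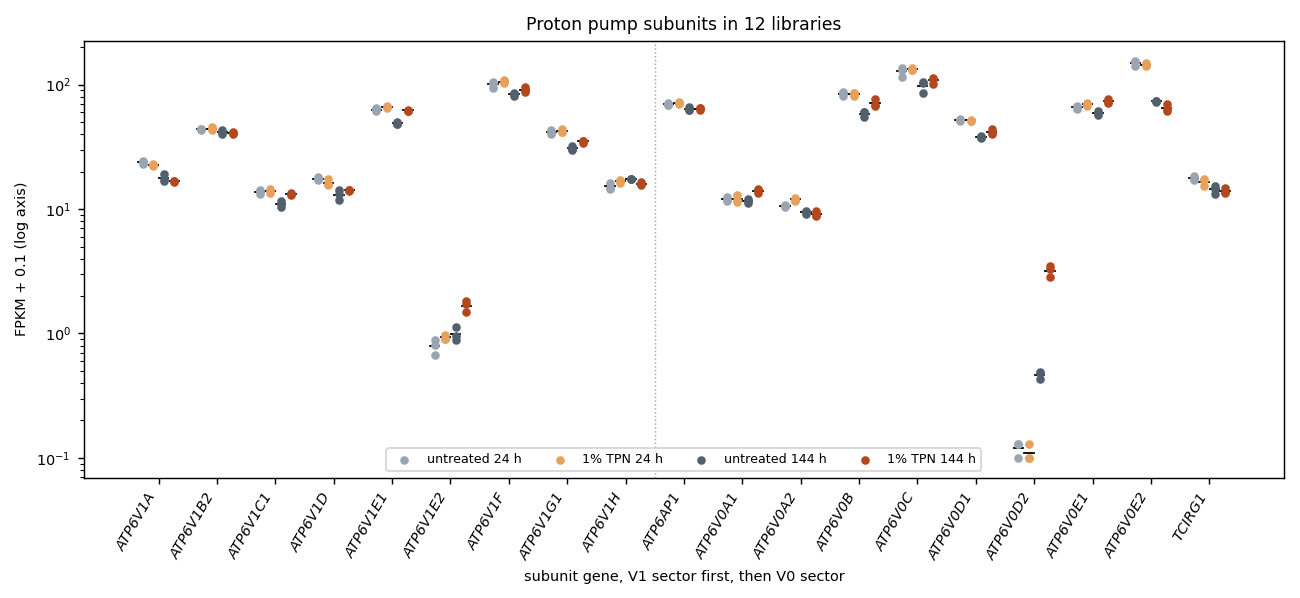
FPKM + 0.1 on a log axis of the 19 tested proton pump subunits in the 12 libraries, 3 points for each group with a bar at their mean, with the V1 sector to the left of the dotted line and the V0 sector to the right. ATP6V0D2 climbs from near the pseudocount at 24 h to a mean of 3.09 FPKM in exposed spheroids at 144 h, and all other subunits except ATP6V1E2 lie between 8.69 and 156 FPKM.

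Factors that assemble or regulate the pump were also examined. Of 12 such genes tested, 4 of which belong to the 143, none passed at 24 h, and 3 were higher and 2 lower at 144 h. Among all genes tested, 24.2% were higher and 28.3% lower at 144 h. DMXL2, of the rabconnectin complex that brings V1 and V0 together, rose by 0.46, and the TLDc-domain protein gene NCOA7 rose by 0.33. Both are among the 143 genes, as are DMXL1 and WDR7, which did not pass. TLDC2 rose by 0.41, while OXR1 fell by 0.42 and ROGDI fell by 0.24 on the log2 scale.

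Of the 12 protease genes tested, 7 were higher and 1 was lower at 144 h, and none passed at 24 h. Cathepsin L, a cysteine endoprotease, showed the clearest response. CTSL, gene 1514 at chr9:87726085-87731469 on GRCh38.p13 as the table gives it, stood at 30.9, 29.4 and 32.8 FPKM in untreated and at 60.9, 61.7 and 59.5 FPKM in exposed spheroids of 144 h. The exposed libraries lay far above the untreated ones, with a log2 fold change of 0.97 (SE 0.05, adjusted p = 5.68e-09). At 24 h its libraries overlapped, at 38.8, 34.9 and 36.9 FPKM in untreated and 35.9, 40.0 and 40.2 FPKM in exposed spheroids, and the difference between the times was 0.90 (adjusted p = 2.63e-06).

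The tripeptidyl peptidase TPP1 rose at 144 h from 41.0 ± 0.64 to 54.0 ± 1.08 FPKM (log2 fold change 0.40). The more abundant cathepsins rose less. CTSB, a cysteine protease, went from 187 ± 6.06 to 222 ± 6.56 FPKM (0.25), and CTSD, the main aspartic protease, from 190 ± 3.93 to 216 ± 7.01 FPKM (0.18). CTSH rose by 0.29, CTSA by 0.25 and CTSC by 0.21, while the asparaginyl endopeptidase LGMN, CTSS, CTSK and CTSV did not pass. CTSZ was the single DEG with lower expression, at 0.8, 0.44 and 0.81 FPKM in untreated and 0.39, 0.43 and 0.22 FPKM in exposed spheroids (log2 fold change -0.80, adjusted p = 0.0079). These levels correspond to few fragments, and the groups of 144 h were kept apart only by 0.44 FPKM in untreated against 0.43 FPKM in exposed spheroids. With a pseudocount of 1 the log2 fold change was -0.32, short of the DEG threshold.

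The glycosidases, which remove sugars from glycoproteins, glycolipids and glycosaminoglycans, moved both ways, with 5 higher, 7 lower and 3 not passing of 15 tested at 144 h. HEXA, which acts in the breakdown of GM2 ganglioside, stood at 17.3, 16.3 and 16.4 FPKM in untreated and at 24.8, 24.7 and 26.4 FPKM in exposed spheroids of 144 h. The groups did not overlap, and the log2 fold change was 0.60 (adjusted p = 4.14e-08). HEXA was a DEG by a small margin, and fell short of the threshold at 0.57 without the third exposed library of 144 h and at 0.577 with a pseudocount of 1. Alpha-galactosidase A, encoded by GLA, rose at both times. GLA went from 22.4, 20.4 and 20.0 to 27.5, 26.1 and 29.1 FPKM at 24 h and from 15.1, 13.8 and 13.9 to 22.7, 18.8 and 22.6 FPKM at 144 h. Its log2 fold changes of 0.40 (adjusted p = 0.00264) and 0.58 (adjusted p = 1.45e-05) differed by 0.18 between the times, which did not pass the test (adjusted p = 0.195). At 144 h GLA fell just short of the DEG threshold. The acid alpha-glucosidase GAA, which degrades glycogen, rose by 0.25 and the beta-galactosidase GLB1 by 0.12 at 144 h.

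The lower glycosidases were led by HYAL1, which cuts hyaluronan. HYAL1 fell at 24 h from 81.8, 85.3 and 83.7 to 66.6, 70.7 and 67.0 FPKM, and at 144 h from 71.2, 73.5 and 74.5 to 54.0, 50.9 and 54.3 FPKM. The exposed libraries lay below the untreated ones at both times, with log2 fold changes of -0.30 (adjusted p = 8.79e-05) and -0.46 (adjusted p = 1.23e-07), and the difference of -0.17 passed the test (adjusted p = 0.0202). This call on the difference was lost without untreated replicate 1 of 24 h (adjusted p = 0.0506) and without exposed replicate 2 of 24 h (adjusted p = 0.0521). NAGLU, which acts on heparan sulfate, went at 144 h from 13.5, 13.6 and 13.8 to 10.4, 9.28 and 10.7 FPKM (log2 fold change -0.43) and did not pass at 24 h, where the log2 fold change was -0.11. GUSB fell by 0.26, MAN2B1 by 0.17 and the sialidase NEU1 by 0.15 on the log2 scale at 144 h, and NEU1 had also fallen by 0.15 at 24 h. That call of 24 h was lost without the trend (adjusted p = 0.0551) and without any of 5 of the 6 libraries of 24 h, with adjusted p values from 0.0519 to 0.101. GUSB and IDS have near-identical copies in the genome, so the assignment of fragments to them is uncertain. HYAL2, a cell-surface hyaluronidase of the same family as HYAL1, fell by 0.29.

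Of the 9 sulfatases, which remove sulfate groups ahead of the glycosidases, and other glycan-modifying enzymes, 5 were higher and 2 lower at 144 h. IDS, which starts the breakdown of dermatan and heparan sulfate, stood at 5.62, 4.86 and 5.33 FPKM in untreated and at 11.2, 10.1 and 11.6 FPKM in exposed spheroids, a log2 fold change of 1.04 (SE 0.11, adjusted p = 3.68e-06). GALNS, gene 2588 at chr16:88813734-88856966, which acts on keratan sulfate, stood at 7.53, 9.04 and 8.38 FPKM and at 15, 12.5 and 14.3 FPKM, a log2 fold change of 0.74 (adjusted p = 1.23e-06). In both genes every exposed library of 144 h lay above every untreated library. ARSG rose by 0.57 and SGSH by 0.20 at 144 h, and both act on heparan sulfate. ARSA, which degrades sulfatide, fell by 0.30, and SUMF1, the enzyme that activates all sulfatases, fell by 0.21 on the log2 scale. At 24 h, 1 of the 9 passed.

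**Figure D5:**
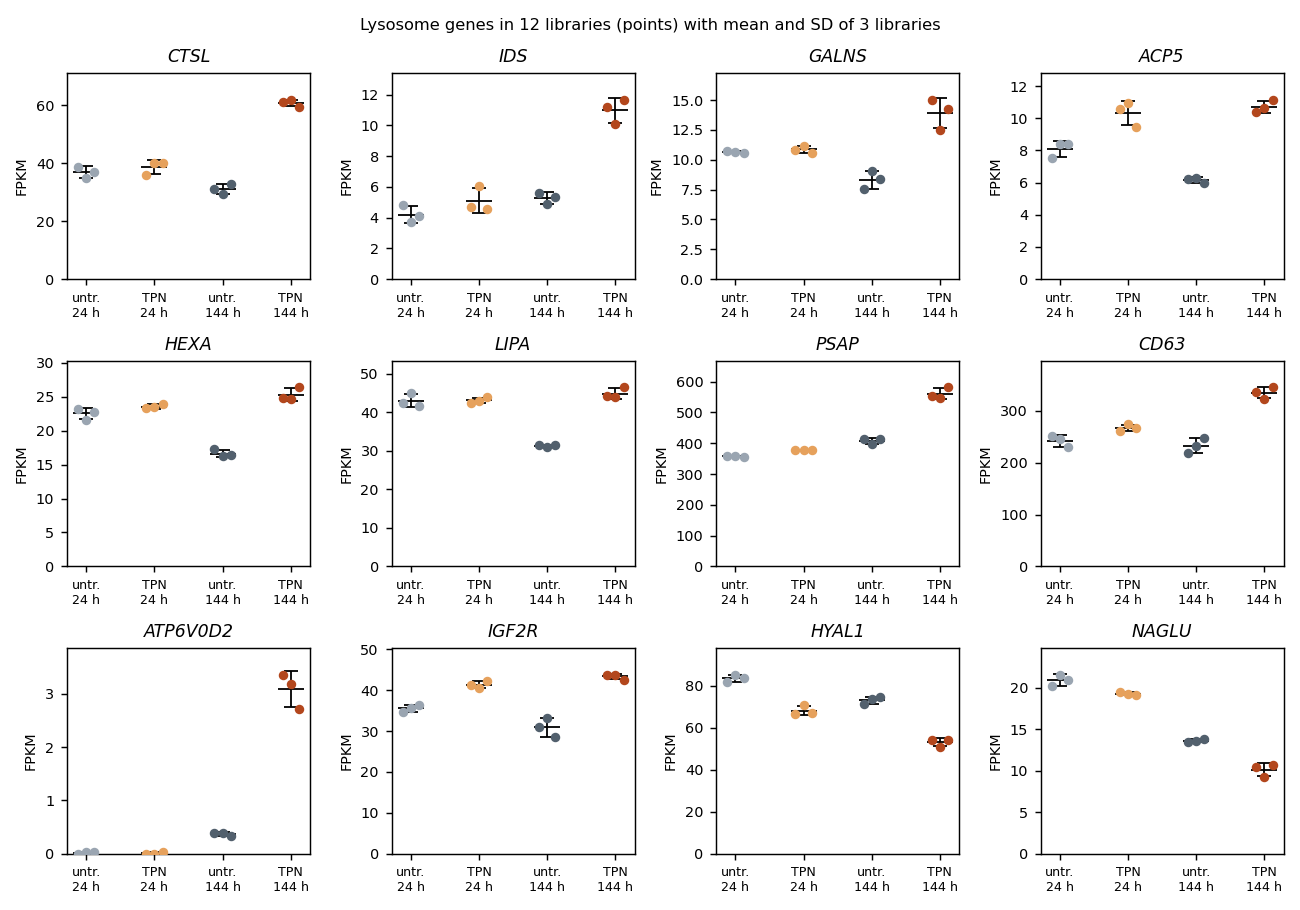
FPKM of 12 lysosome and pump genes in untreated and exposed (TPN) spheroids at 24 h and 144 h, with the 3 libraries of each group as points and their mean and SD as bars, each axis starting at 0. CTSL roughly doubles at 144 h from a mean of 31.0 to 60.7 FPKM, whereas HYAL1 and NAGLU are lowest in the exposed spheroids of 144 h.

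Among lipid hydrolases and their activator proteins, 4 of 9 tested were higher and 2 lower at 144 h, and none passed at 24 h. LIPA, the acid lipase that frees cholesterol and fatty acids from lipoprotein esters, stood at 31.4, 30.9 and 31.4 FPKM in untreated and at 44.3, 43.8 and 46.4 FPKM in exposed spheroids of 144 h (log2 fold change 0.52, adjusted p = 3.91e-08). In untreated spheroids of 24 h it had stood at 43.0 ± 1.66 FPKM. PSAP went from 413, 397 and 413 to 553, 548 and 582 FPKM (0.46, adjusted p = 1.34e-08), and its libraries did not overlap. The acid ceramidase ASAH1 rose by 0.38 and the acid sphingomyelinase SMPD1 by 0.27. NPC2, which hands cholesterol to NPC1, fell from 225 ± 5.52 to 203 ± 8.6 FPKM, a log2 fold change of -0.15, and the GM2 activator GM2A fell by 0.11.

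Only 3 nucleases and phosphatases are in the list, and all 3 passed at 144 h. ACP5, the tartrate-resistant acid phosphatase, rose at 24 h from 7.53, 8.38 and 8.40 to 10.6, 10.9 and 9.47 FPKM and at 144 h from 6.25, 6.28 and 5.96 to 10.4, 10.6 and 11.1 FPKM. Its exposed libraries lay above the untreated ones at both times, with log2 fold changes of 0.34 (adjusted p = 0.00259) and 0.79 (adjusted p = 1.96e-07), and the difference of 0.44 passed the test (adjusted p = 0.00189). The acid nuclease DNASE2 rose by 0.25 at 144 h, while the lysosomal acid phosphatase ACP2 fell by 0.36 on the log2 scale.

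Of the 23 membrane proteins and transporters, 12 were higher and 1 was lower at 144 h. The tetraspanin CD63 and the lysosomal membrane glycoproteins LAMP1 and LAMP2 rose. CD63 went from 218, 233 and 247 to 336, 323 and 345 FPKM (log2 fold change 0.53), LAMP1 from 88.7, 94.9 and 94.2 to 111, 110 and 116 FPKM (0.28) and LAMP2 from 30.1, 28.5 and 29.2 to 32.9, 34.1 and 36.4 FPKM (0.23). In all 3 the groups of 144 h did not overlap. CD68, a macrosialin that other cells also carry, rose at 24 h by 0.17 and at 144 h by 0.41. Among the macrophage markers LYZ rose from 1113 ± 45.1 to 1340 ± 48.5 FPKM at 144 h, and CD14 and AIF1 did not pass.

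The cholesterol exporter NPC1 was higher at both times. NPC1 stood at 22.65, 22.99 and 23.04 FPKM in untreated and at 27.5, 29.1 and 29.3 FPKM in exposed spheroids of 24 h, and at 29.3, 30.1 and 27.3 FPKM and 38.6, 37.3 and 36.8 FPKM at 144 h. Without overlap at either time, its log2 fold changes were 0.32 (adjusted p = 0.000169) and 0.38 (adjusted p = 3.73e-06), and their difference of 0.06 did not pass (adjusted p = 0.483). The lipid transporter gene ABCA2 rose by 0.41, SCARB2, a receptor of the lysosomal membrane, by 0.27, and LAPTM4B by 0.29 at 144 h. SLC11A1, a divalent metal transporter of phagocytes, stood at 1.24, 1.01 and 1.14 FPKM in untreated and at 2.48, 2.51 and 2.49 FPKM in exposed spheroids of 144 h. Its log2 fold change was 1.08 (adjusted p = 0.0124), and this call was lost with a pseudocount of 0.01 (adjusted p = 0.0635). Its paralog SLC11A2, an iron transporter of many cell types, fell by 0.19. The calcium channel MCOLN1 and the cystine exporter CTNS did not pass, with log2 fold changes of 0.14 and 0.07. LITAF, which acts in sorting to the lysosome, was lower at 24 h only, with log2 fold changes of -0.20 and 0.003 at the 2 times and a difference that passed (adjusted p = 0.0029).

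Of 9 genes that tag or sort the hydrolases, 5 were higher and 1 was lower at 144 h. IGF2R, the large mannose 6-phosphate receptor, stood at 34.7, 35.6 and 36.4 FPKM in untreated and at 41.3, 40.6 and 42.3 FPKM in exposed spheroids of 24 h. At 144 h it went from 31.0, 33.3 and 28.5 to 43.8, 43.7 and 42.5 FPKM. The exposed libraries were higher at both times, with log2 fold changes of 0.22 (adjusted p = 0.00766) and 0.49 (adjusted p = 1.11e-06), and the difference of 0.27 passed the test (adjusted p = 0.00663). M6PR, the small receptor, rose by 0.35 at 144 h and had a log2 fold change of 0.03 at 24 h. The Golgi adaptors GGA1 and GGA2 rose by 0.20 and 0.22, and GNPTAB, which makes the mannose 6-phosphate tag, by 0.17. Sortilin, encoded by SORT1, an alternative sorting receptor, fell from 37.9, 36.5 and 36.8 to 30.2, 30.2 and 29.7 FPKM (log2 fold change -0.30, adjusted p = 1.27e-06), without overlap.

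Of the 22 tested clathrin and adaptor genes, which form the coats of transport vesicles, 4 were higher, 2 were lower and 16 did not pass at 144 h, beside 24.2% higher and 28.3% lower among all genes. AP1M2, the epithelial form of the medium chain of adaptor complex AP-1, was higher at both times, with log2 fold changes of 0.34 and 0.37. AP1S1 rose by 0.37, the light chain CLTB by 0.26 and AP3S1 by 0.12, whereas AP3B1 fell by 0.16 and AP3M1 fell by 0.11 on the log2 scale. The clathrin heavy chain CLTC, at 69.7 FPKM in untreated and 71.0 FPKM in exposed spheroids, did not pass.

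Whether the response differed between the times was tested as an interaction, the effect of exposure on the log2 scale after 144 h less the effect after 24 h. It was higher at 144 h in 43 of the 128 genes (33.6%, background 14.1%) and lower in 13 (10.2%, background 16.3%), with a median of 0.12 beside -0.02 over all genes. By the DEG thresholds 5 genes were higher (background 4.2%), which were ATP6V0D2, SLC11A1, CTSL, IDS and GALNS, and CTSZ was lower (background 1.66%). This comparison shares its libraries with those at 24 h and 144 h.

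In untreated spheroids, 144 h were compared with 24 h to show what the culture time alone brought, and this comparison shares untreated libraries with both TPN comparisons. Expression was lower at 144 h in 81 of the 128 genes (63.3%, background 52.4%) and higher in 23 (18%, background 20.1%), and the medians of these genes and of all genes were both near -0.2, at -0.19 and -0.18. The 3 libraries of 144 h all lay below those of 24 h in 83 genes (64.8%, background 53.7%) and above them in 23 (18%, background 21.2%). With median ratio scaling the median of all genes was -0.0078, and 50 lysosome and pump genes were lower and 38 higher. The summed level fell from 5404 to 4877 FPKM as deposited but was 5056 and 5164 with that scaling, so its direction depends on the scaling. DEGs numbered 7 higher (background 6.8%) and 17 lower (background 12.2%).

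Relative to that shift, some genes moved far. LAMP3, a glycoprotein known from dendritic cells and stressed cells, stood at 0.63, 0.47 and 0.36 FPKM at 24 h and at 2.72, 2.60 and 2.63 FPKM at 144 h, a log2 fold change of 2.25. ATP6V0D2 rose by 1.97, SLC11A1 by 1.71, the sorting adaptor GGA1 by 1.03, SLC11A2 by 0.68 and CTSV by 0.69 over the same time. With a pseudocount of 1 ATP6V0D2 (0.42) and CTSV (0.31) were no longer DEGs for culture time, nor was CTSV without untreated replicate 2 of 24 h (0.54). CTSK had a log2 fold change of 0.62, and the call was lost without any of 4 of the 6 untreated libraries, with adjusted p values of 0.057 to 0.18. ATP6V0E2 halved, from 142, 156 and 151 to 73.8, 72.8 and 74.0 FPKM, a log2 fold change of -1.02, and CTSA went from 170, 173 and 167 to 90.6, 91.3 and 94.5 FPKM, a log2 fold change of -0.88. With median ratio scaling these were -0.85 and -0.70. As deposited, the pump subunits were lower in 15 and higher in 2 of 19 genes, beside 52.4% lower and 20.1% higher among all genes. With median ratio scaling, where the median of all genes was -0.0078, they were lower in 9 and higher in 5. These counts too lack a share of all genes with that scaling, and whether the pump differs from other genes was not tested.

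Set side by side, the effect of culture time and that of TPN at 144 h differed in sign for several genes. LIPA had log2 fold changes of -0.46 with time and 0.52 with TPN, M6PR -0.63 and 0.35, LAMP1 -0.48 and 0.28, HEXA -0.44 and 0.60, ATP6V1E1 -0.36 and 0.34, and GALNS -0.36 and 0.74. With median ratio scaling the values with time were -0.28 for LIPA, -0.45 for M6PR, -0.30 for LAMP1, -0.26 for HEXA, -0.19 for ATP6V1E1 and -0.18 for GALNS. For ATP6V0D2, SLC11A1, IDS, PSAP and CTSD both values were positive, and for NAGLU, ACP2 and ATP6V0E2 both were negative. Since both values of a gene rest on the same 3 untreated libraries of 144 h, no relation between them was tested.

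Genes that act on the lysosome from outside the list were described by fixed lists. Of the MiT/TFE factors, TFE3 stood at 17.4 ± 0.41 FPKM in untreated and 22.3 ± 0.66 FPKM in exposed spheroids of 24 h and at 15.4 ± 0.46 and 22.7 ± 0.63 FPKM at 144 h, with log2 fold changes of 0.35 (adjusted p = 4.6e-05) and 0.55 (adjusted p = 6.6e-08). TFEB was lower in abundance and fell at 144 h from 3.34 ± 0.18 to 2.58 ± 0.10 FPKM, a log2 fold change of -0.36 (adjusted p = 0.00272). MITF and TFEC averaged at most 0.11 FPKM and were not tested. Of 18 tested genes of the Rag GTPases, Ragulator and mTORC1, which sense amino acids at the lysosomal surface, none passed at 24 h. At 144 h, 6 were higher and 5 lower, beside 24.2% higher and 28.3% lower among all genes. RRAGA rose by 0.38, whereas MTOR fell by 0.24 and FNIP2 fell by 0.33 on the log2 scale.

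Of 23 autophagosome genes tested, 2 were higher at 24 h, where 5.04% of all genes were higher. At 144 h, 7 were higher and 1 was lower, beside 24.2% higher and 28.3% lower among all genes. SQSTM1, the cargo receptor p62, stood at 123 ± 5.14 FPKM in untreated and 249 ± 5.73 FPKM in exposed spheroids of 24 h and at 129 ± 2.1 and 349 ± 13.9 FPKM at 144 h, with log2 fold changes of 1.02 and 1.43. GABARAPL1, which coats autophagosome membranes, rose by 0.54 and 1.198 at the 2 times, and MAP1LC3B, the gene of LC3B, rose by 0.59 at 144 h. The kinase ULK1 rose by 0.53, GABARAPL2 by 0.22, ATG16L1 by 0.20 and BECN1 by 0.17 at 144 h, while NBR1 fell by 0.10.

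Markers of the cells themselves moved with exposure as well. Of 9 hepatocyte markers, 7 were lower at 144 h, and their sum was between 13930 and 14880 FPKM in untreated and between 10810 and 11600 FPKM in exposed libraries. Of 8 tested stellate cell markers, 5 were lower at 144 h, with log2 fold changes from -0.40 for PDGFRB to -1.40 for COL3A1. The median of the 8 was -0.73. The sums of the list, 54.3 to 59.7 FPKM and 49.0 to 51.5 FPKM, were mostly ACTA2. That marker averaged 47.9 and 45.4 FPKM and did not pass. The untested markers DES and LUM averaged at most 0.06 FPKM. Of 8 proliferation genes, all 8 were lower at 144 h, with sums of 590 to 603 FPKM and 419 to 436 FPKM. At 24 h, 5 hepatocyte, 1 stellate cell and 6 proliferation markers were lower. Among all genes tested, 28.3% were lower at 144 h and 5.46% at 24 h. The part that the shifts in these markers have in the values of the lysosome and pump genes was not tested.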

How the data were processed

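RNA of 12 libraries of C3A and LX-2 spheroids was sequenced on the DNBSEQ platform from strand-specific mRNA libraries. The authors filtered reads with SOAPnuke, aligned them to GRCh38.p13 with HISAT2 2.0.4, mapped them to transcripts with Bowtie2 2.2.5 and calculated expression with RSEM. Values were taken as FPKM, the unit in which the authors deposited them with 2 decimals, and 20 continuation lines of the table were skipped. The paper's DESeq2 analysis needs counts, so limma 3.58.1 in R 4.3.3 was used on log2(FPKM + 0.1), with 4 group means and eBayes with trend, for the 11713 genes that averaged 0.5 FPKM or more. Differences are therefore on the log2(FPKM + 0.1) scale and understate changes of low genes. Depth was estimated from whole-fragment steps of FPKM in short genes with GENCODE transcript lengths, and the authors may have used others. The model was tested on simulated data. Libraries of a group stem from independent experiments according to the study.

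The members follow a fixed rule on annotation and symbol. They, the role lists, the marker lists and the tests were chosen with earlier results of these data known. Genes were named when they were pump subunits, chosen textbook lysosome genes, DEGs in any comparison, or among the 3 with the largest rise or fall in their role list and no overlap between groups. TFEB, TFE3, MITF and SQSTM1 and related genes past the test with an absolute log2 fold change above 0.58 were named too. Other related genes, markers and members were named after their values were seen. Alternatives were a pseudocount of 1 or 0.01, no filter or a mean of at least 5 FPKM, 3 scalings, fits without trend, with only the groups compared or with replicate number as a block, and leaving out each library. Promoter windows came from RefSeq (GRCh38.p14). Tables and figures were made in Python 3.11.15 (pandas 2.3.3, numpy 2.4.6, matplotlib 3.10.9). All FPKM columns of the table were assigned to a library from its label. Some members entered the counts but are not reported here by name.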

Additional observations from a re-analysis of the deposited data

Results flagged for a closer look

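In 6 lysosome and pump genes the interaction of exposure with time, tested in limma, passed the thresholds of a DEG. The effect at 144 h less that at 24 h was 2.90 for ATP6V0D2, 0.898 for CTSL, 0.777 for IDS and 0.71 for GALNS, and CTSL, IDS and GALNS passed the test in every alternative run. ATP6V0D2 passed the filter on low values only through the exposed group of 144 h and so had to differ. For SLC11A1 it was 1.46, with an adjusted p value of 0.0277 that rose to between 0.0509 and 0.0697 in 7 alternatives. For CTSZ it was -0.91, with an adjusted p value of 0.0429 that rose to at most 0.0967 in 12 alternatives, among them the replicate block. Both SLC11A1 and CTSZ stood below 3 FPKM in every library.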

How the results depend on the processing

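Of the 13 genes that passed at 24 h, 8 passed in every alternative run, as did 68 of the 77 at 144 h and 43 of the 56 that differed between the times. At 24 h the genes lower numbered 2 in place of 4 without the trend, and between 2 and 5 when a library was left out, with 2 without untreated replicate 2, exposed replicate 1 or exposed replicate 3. With a mean of at least 5 FPKM, which tests 103 of the genes, DEGs numbered 5 at 144 h, 3 for the difference between the times and 13 for culture time. DEGs for culture time numbered 13 with median ratio scaling and 14 with quantile normalization, and with median ratio scaling 38 genes were higher and 50 lower. The shares of all genes called under these alternatives are not given here. The summed FPKM of untreated spheroids at 24 h was 5456 with libraries scaled to the same sum. With median ratio scaling the sums were 5056, 5124, 5164 and 5881 in untreated 24 h, exposed 24 h, untreated 144 h and exposed 144 h.

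The direction of the culture time effect turned with median ratio scaling in, among other genes, AP3M1 (0.0206), AP3S1 (0.0671), GUSB (0.0605), SGSH (0.00852), LAPTM4A (0.109), ATP6AP1 (0.0554), ATP6V0A1 (0.134), ATP6V0A2 (0.00626), ATP6V0E1 (0.0173), ATP6V1B2 (0.0996), CD63 (0.119), CTSH (0.0688), GAA (0.0436), GLB1 (0.0458) and LAMP2 (0.0252). It turned with quantile normalization in, among other genes, AP3S1 (0.0818), GUSB (0.0464), ATP6AP1 (0.0673), ATP6V0E1 (0.0243), ATP6V1B2 (0.0955), CTSH (0.0456), GAA (0.0358), GLB1 (0.0356) and LAMP2 (0.0136). The median effect of culture time over all genes was -0.18 as deposited, -0.0078 with median ratio scaling and -0.049 with quantile normalization. At 24 h and 144 h of exposure no named gene passed the test in the opposite direction under any alternative.

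Whether replicate numbers pair the samples cannot be settled from 3 libraries in a group. The deviations of same-numbered untreated and exposed libraries correlated between -0.083 and 0.103 at 24 h and between -0.013 and 0.0559 at 144 h. Not every untreated library correlated best with the exposed library of its own number. Between untreated libraries of 24 h and 144 h, same-numbered correlations were 0.094, 0.020 and 0.151. Each was the highest for its library of 24 h. With the replicate number as a block, 8 genes were higher and 5 lower at 24 h, 60 higher and 19 lower at 144 h, and 24 higher and 80 lower with culture time. At about 18700000 fragments per library, genes near 0.5 FPKM rest on few fragments.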
